A study of Mus musculus with 2 samples.

Results

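The acinar protease zymogen genes described here are 8 genes matched by symbol among the 19465 features of both count matrices: the trypsinogen genes Prss2 and Try4, the chymotrypsinogen genes Ctrb1 and Ctrl, the elastase genes Cela1, Cela2a and Cela3b, and the carboxypeptidase gene Cpa1. All 8 were found, and the rule uses their names alone, with no measured value. The genes were, however, chosen with earlier results of these data known. Their ranks and counts among all genes below are therefore descriptive only. They were read in Visium CytAssist spatial transcriptomics of orthotopic pancreatic tumors, in which probes hybridized to a tissue section are captured on barcoded spots, each a patch of tissue with room for more than a single cell and cell type. KPC cells are a mouse pancreatic cancer line from a genetically engineered, Cre-driven model. The library labelled KPC-shZEB1 (2220 spots, 140493626 unique molecular identifiers, UMIs) came from tumor tissue of mice given KPC cells carrying a short hairpin RNA against ZEB1. The library labelled KPC-shV (3552 spots, 172059528 UMIs) came from tumors of KPC cells with the control vector. Each label therefore has 1 library, although tissue of more than a single tumor per group was collected, and the labels do not say which tumor a library covers. The paper gives gemcitabine treatment for the same tissues, which the labels do not name. Only the grafted tumor cells carry the hairpin, and the acinar cells belong to the host.

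Acinar cells of the exocrine pancreas make digestive proteases as inactive zymogens and store them in granules until they are secreted into the gut. There, enteropeptidase cleaves trypsinogen, and trypsin in turn activates chymotrypsinogen, the proelastases and the procarboxypeptidases. The genes are driven by the acinar transcription factor complex PTF1, which joins a basic helix-loop-helix dimer on an E-box with RBPJL on a neighboring TTTCC box. Injured or inflamed acinar cells are known to lower their digestive enzyme genes and to express Reg genes, which encode secreted stress proteins.

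Promoters are shown for Cela1, whose share of the member UMIs differed most between the libraries in fold, for Ctrb1, whose share differed most in percentage points, and for the trypsinogen pair. Each is the 250 bases before the RefSeq start, read 5′ to 3′ on the gene's strand of GRCm38.p6. Capitals mark, on either strand, the E-box CACCTG, the E-box CAGCTG, the box TTTCC bound by RBPJL and the TATA box TATAAA.
Cela1: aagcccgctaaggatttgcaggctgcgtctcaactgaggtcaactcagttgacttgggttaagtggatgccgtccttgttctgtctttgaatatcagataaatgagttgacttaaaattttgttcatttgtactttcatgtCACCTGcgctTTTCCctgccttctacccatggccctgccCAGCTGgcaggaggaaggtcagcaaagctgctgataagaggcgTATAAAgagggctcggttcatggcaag
Ctrb1: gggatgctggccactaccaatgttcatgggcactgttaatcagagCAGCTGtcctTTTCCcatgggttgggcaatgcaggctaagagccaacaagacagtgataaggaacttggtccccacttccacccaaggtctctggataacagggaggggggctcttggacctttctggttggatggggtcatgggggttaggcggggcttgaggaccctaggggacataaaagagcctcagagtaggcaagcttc
Prss2: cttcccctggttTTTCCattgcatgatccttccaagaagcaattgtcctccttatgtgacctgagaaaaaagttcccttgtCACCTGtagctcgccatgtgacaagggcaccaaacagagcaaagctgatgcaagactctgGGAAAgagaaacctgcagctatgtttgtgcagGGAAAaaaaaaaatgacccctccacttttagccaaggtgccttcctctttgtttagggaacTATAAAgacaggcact
Try4: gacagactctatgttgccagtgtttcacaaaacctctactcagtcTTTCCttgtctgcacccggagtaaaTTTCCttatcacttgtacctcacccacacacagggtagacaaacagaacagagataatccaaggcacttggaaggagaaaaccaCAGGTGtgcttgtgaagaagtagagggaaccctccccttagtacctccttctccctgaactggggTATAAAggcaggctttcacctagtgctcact
The windows lie at chr15:100687921-100688170 for Cela1 and chr8:111691011-111691260 for Ctrb1, both on the minus strand, and at chr6:41521526-41521775 for Prss2 and chr6:41302022-41302271 for Try4, both on the plus strand. Those of Cela1 and Try4 reach a few bases into a GENCODE exon. Among the windows not shown, those of Cela2a and Cela3b also overlap such an exon. The GENCODE gene of Cela2a reaches to 141826160, inside its window of 141826006 to 141826255. The spaced pair of an E-box (CANNTG) and, after 4 further bases, TTTCC was found in Cela1 and Ctrb1, in 2 of the 8 windows and in 0.338% of 32851 promoter windows of the same length. CACCTG was in 6 of the 8 windows against 17.2% of all windows, CAGCTG in 3 against 13%, TTTCC in 7 against 55.6% and TATAAA in 3 against 12.4%, on either strand. TTTCCC, which overlaps TTTCC, was in 5 against 21.9%, and AAGGTCA in 1, that of Cela1, against 4.08%. Cela1 and Ctrb1 thus shared the rarest of these letter patterns, which is also the longest. Their proportions differed in opposite directions. A match describes letters only, and the part of any pattern in the levels was not tested. In GRCm38, Try4 (chromosome 6, 41302269 to 41305532) lies 216254 bases from Prss2 (41521787 to 41525079), in the same trypsinogen cluster. The longest protein-coding transcripts of Prss2 and Try4 were 88.6% identical, those of Try4 and Try5 97.1%, and those of Cela3b and Cela3a 89.6%. Try5 is not in the feature list used. Probe sequences were not used here, so a probe that also binds a close relative cannot be told apart from the named gene for Prss2, Try4 and Cela3b. The transcripts of Ctrb1 and Ctrl were 61.8% identical.

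Spots were sorted without the members. Acinar-rich spots had over 2% of their UMIs from 11 non-protease acinar genes, such as the lipase genes Pnlip and Cel and the ribonuclease gene Rnase1. Tumor spots had under 0.2% of these UMIs and a summed level of the tumor epithelium genes Krt7, Krt8, Krt19, Epcam and Cdh1 at or over the median of all such spots. Levels are UMIs per 1000000 UMIs of the spots used (CPM), and shares are percentages of the UMIs of the 8 members. Both depend on the probes of each gene, so a gene is compared with itself between libraries or spots. Intervals are exact 95% intervals and cover counting error only. With 1 library per label there was no test, so whether a difference exceeds the spread between animals is unknown.

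Acinar-rich spots numbered 810 of 2220 (36.5%, interval 34.5% to 38.5%) under the label KPC-shZEB1 and 350 of 3552 (9.85%, 8.89% to 10.9%) under the label KPC-shV. Their median depths were 64192.5 and 21705.5 UMIs, and the 8 members took 43.2% and 27.8% of their UMIs. Of all member UMIs, 99.2% and 96.9% lay in these spots. Tumor spots numbered 549 and 1612, with median depths of 64527 and 62336 UMIs. Zeb1, the targeted gene, had 10.8 CPM (10.3 to 11.3) over all spots labelled KPC-shZEB1, against 12.4 CPM (11.9 to 13) over all spots labelled KPC-shV. In tumor spots the order was the opposite, at 10.3 CPM (9.32 to 11.4) against 8.60 CPM (8.01 to 9.22). The Zeb1 level in tumor spots therefore did not follow the labels. These spots were picked by tumor epithelium genes and also hold host cells, which lack the hairpin. Their Zeb1 level thus cannot test the knockdown or the labels. The level over all spots cannot do so either, because it also depends on acinar content. Acinar-rich spots, with Zeb1 at 4.02 and 6.69 CPM, held 40.7% of all UMIs under the label KPC-shZEB1 and 4.69% under the label KPC-shV. Every direction below is between the libraries so labelled. In a spot, fewer acinar cells and less RNA per acinar cell cannot be told apart. The libraries share 1718 spot barcodes, which are fixed slide positions.

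Over all spots, each of the 8 members was higher by over 2-fold in the library labelled KPC-shZEB1. So were 2.15% of the 18070 genes tested, while 8.49% were higher by over 2-fold in the library labelled KPC-shV. A gene was tested if it had at least 100 UMIs in either library. The median log2 ratio of all tested genes was -0.48. Cela1, a chymotrypsin-like elastase, stood at 6700 CPM against 51.6 CPM, with a log2 ratio of 7.02 (6.99 to 7.05), the highest of all genes tested. Try4 stood at 3965 and 68.4 CPM, which placed it 3rd, and Ctrl at 20596 and 584 CPM, which placed it 8th. Ctrb1 had the lowest ratio of the members, 2.96 (2.95 to 2.96), at 68890 and 8883 CPM. The ratios of the members thus ranged widely, from 7.75-fold for Ctrb1 to 130-fold for Cela1. As the mean over spots, the log2 ratios were 1.83 for Ctrb1 and 6.04 for Cela1, and without the 5% highest spots 4.80 and 8.89. The 11 non-protease acinar genes, summed, were 16.3-fold higher. Acinar-rich spots are therefore compared by themselves below.

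**Figure D1:**
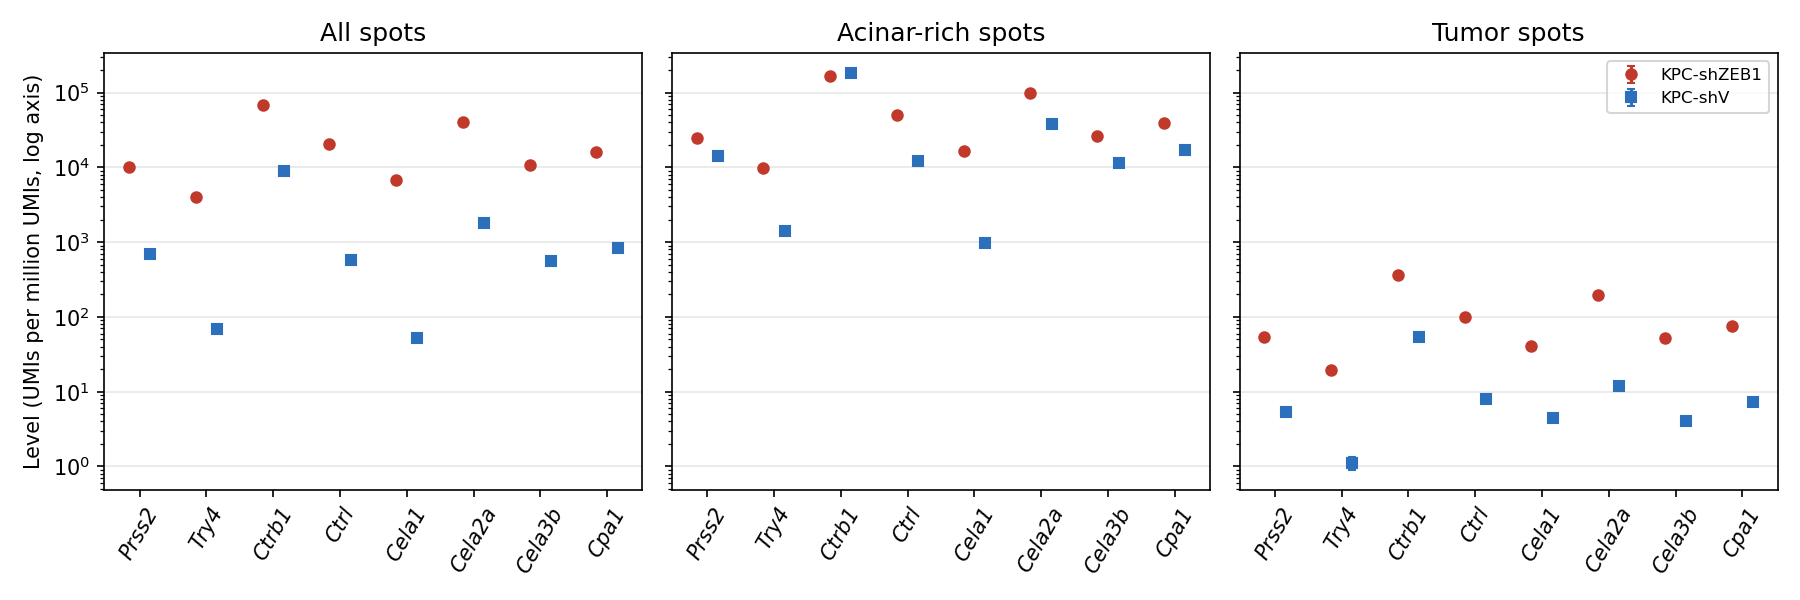
Level of each zymogen gene in CPM (log axis) over all spots, acinar-rich spots and tumor spots, as circles for the library labelled KPC-shZEB1 and squares for the library labelled KPC-shV; bars are exact 95% Poisson intervals, mostly smaller than the points. Every circle lies above its square except for Ctrb1 in acinar-rich spots, at 167349 against 183099.

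In acinar-rich spots, 6 of the 8 members were higher by over 2-fold in the library labelled KPC-shZEB1. There 0.593% of the 10459 genes tested were higher and 52.1% were lower by over 2-fold. The acinar-rich spots also differed in acinar content, with medians of 14.9% and 6.95% non-protease acinar UMIs. Levels at like acinar content are given below. The median log2 ratio of all tested genes was -1.02 and that of the members was 1.28. Summed, the 8 members were 1.55-fold higher and the 11 non-protease acinar genes, by which these spots were chosen, 1.94-fold. Of those 11 genes, 5 were over 2-fold higher and 6 were within 2-fold. Because the members alone took 43.2% and 27.8% of the UMIs, they lower the CPM of all other genes, and more so in the library labelled KPC-shZEB1. By class, the elastase genes summed to 141406 and 50425 CPM (2.80-fold), the trypsinogen genes to 34430 and 15640 CPM (2.20-fold) and Cpa1 to 39026 and 17164 CPM (2.27-fold). The chymotrypsinogen genes summed to 217613 and 195242 CPM, 1.11-fold, the smallest difference of the 4 classes.

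Among the trypsinogen genes, whose product activates the other zymogens, Prss2 was at 24762 CPM (24721 to 24803) against 14253 CPM (14170 to 14335), with a log2 ratio of 0.80 (0.79 to 0.81). Try4 was at 9668 CPM (9642 to 9693) against 1387 CPM (1362 to 1413), with a log2 ratio of 2.80 (2.77 to 2.83). The trypsinogen genes therefore did not move by the same factor, 1.74-fold for Prss2 and 6.97-fold for Try4.

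Among the chymotrypsinogen genes, Ctrb1 was at 167349 CPM (167243 to 167455) against 183099 CPM (182804 to 183395), with a log2 ratio of -0.13 (-0.13 to -0.13). Ctrl, which encodes a chymotrypsin-like protease, was at 50264 and 12143 CPM, a log2 ratio of 2.05 (2.04 to 2.06). Ctrb1 was the only member that was lower in the library labelled KPC-shZEB1, and its direction turned when acinar genes were taken out of the total (log2 ratio 0.53) or levels were read relative to the median gene (0.90). It lay above the median of all tested genes, so the direction of Ctrb1 depends on the scale.

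Among the elastase genes, Cela1 was at 16346 CPM (16313 to 16379) against 984 CPM (962 to 1006), a 16.6-fold difference and a log2 ratio of 4.05 (4.02 to 4.09), the 5th highest of 10459. Cela2a was at 98939 and 37895 CPM, a log2 ratio of 1.38 (1.38 to 1.39). Cela3b was at 26121 and 11546 CPM, a log2 ratio of 1.18 (1.17 to 1.19). Cpa1, which encodes a protease that removes single residues from the carboxyl end of peptides, was close to the latter, with a log2 ratio of 1.19 (1.18 to 1.19). Scaled to the median gene, the ratios came to 5.08 for Cela1, 3.83 for Try4 and 3.08 for Ctrl on the log2 scale. Per UMI of the non-protease acinar genes of the same spots, a scale chosen after the data were seen, Cela1 (log2 ratio 3.10), Try4 (1.85) and Ctrl (1.10) were still over 2-fold higher. On that scale the 8 members together were lower in the library labelled KPC-shZEB1 (-0.32), as were Prss2 (-0.16) and Ctrb1 (-1.08).

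The proportions of the 8 members do not depend on the other genes of a spot. Ctrb1 made up 38.7% of the member UMIs in acinar-rich spots labelled KPC-shZEB1, against 65.8% in those labelled KPC-shV. Cela2a made up 22.9% and 13.6%, Ctrl 11.6% and 4.36%, and Cpa1 9.02% and 6.16%. The profile labelled KPC-shV was thus dominated by Ctrb1, while the profile labelled KPC-shZEB1 was spread over more genes. Cela1 made up 3.78% (3.77% to 3.79%) and 0.353% (0.346% to 0.361%), a 10.7-fold difference. Try4 made up 2.24% and 0.498%, a 4.49-fold difference. Prss2 (5.73% and 5.12%) and Cela3b (6.04% and 4.15%) differed less. The chymotrypsinogen class held 50.3% and 70.1% and the elastase class 32.7% and 18.1%. Since shares sum to 100%, a smaller share of a large member raises those of the others: with Ctrb1 left out, Cela1, Try4 and Ctrl still had the larger share in the library labelled KPC-shZEB1, but the shares of Prss2, Cela2a, Cela3b and Cpa1 were smaller there.

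**Figure D2:**
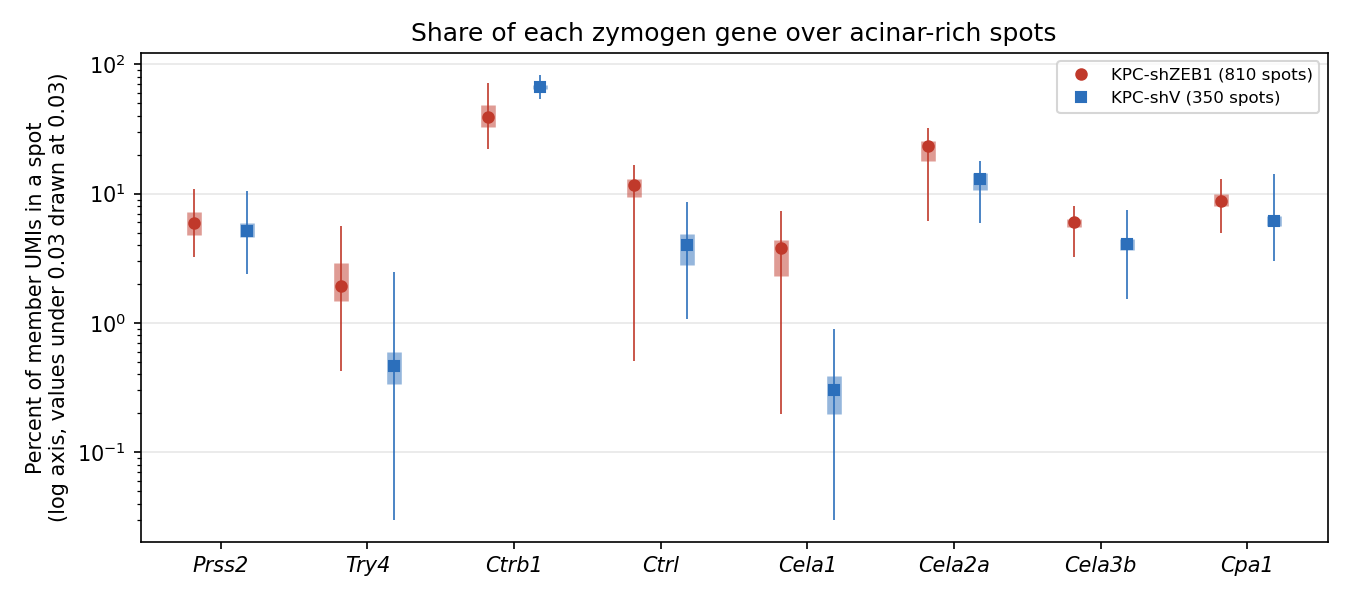
Percent of the member UMIs of a spot (log axis) taken by each zymogen gene in the 810 acinar-rich spots labelled KPC-shZEB1 (circles) and the 350 labelled KPC-shV (squares); points are medians, thick bars run from the 25th to the 75th percentile and thin lines over the full range, with values under 0.03% drawn at 0.03%. The Cela1 medians are 3.81% and 0.303%, and 760 of the 810 spots labelled KPC-shZEB1 lie above all those labelled KPC-shV, whereas the Prss2 ranges overlap almost fully.

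Over single spots, the Cela1 share ran from 0.196% to 7.31% (median 3.81%) in the spots labelled KPC-shZEB1, against 0% to 0.898% (median 0.303%) in those labelled KPC-shV. In 760 of 810 spots it exceeded the highest spot labelled KPC-shV. The Ctrl share exceeded it in 650 spots, that of Cela2a in 603 and that of Try4 in 275. The Ctrb1 share ran from 22.3% to 72.3% (median 39.4%) and from 53.6% to 82.5% (median 66.7%), and in 685 of 810 spots it was below the lowest spot labelled KPC-shV. The Prss2 share exceeded the highest such spot in 2 spots and that of Cela3b in 3, so these shares overlapped. Spots of 1 library are not replicates, and these counts describe the libraries.

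Within the library labelled KPC-shZEB1, the proportions varied between spots. Over its 810 acinar-rich spots the shares of Ctrl, Cela1 and Cela2a varied together (Pearson r of 0.87 for Ctrl and Cela1, 0.92 for Ctrl and Cela2a and 0.90 for Cela1 and Cela2a). The same pairs had r of 0.50, 0.68 and 0.40 over the 350 spots labelled KPC-shV. The share of Try4 had r of 0.65 with Prss2 and 0.71 with Cpa1, and lower values with this set, 0.42 with Ctrl, 0.33 with Cela2a and 0.25 with Cela1. With Ctrb1 it had r of -0.59. The points of each library share its preparation and a denominator, and shares that sum to a fixed total are partly correlated by that alone. The genes outside the 8 whose log2 level most resembled the log2 sum of the members over these spots included the granule genes Zg16 (r = 0.96) and Sycn (0.95) in the library labelled KPC-shZEB1. In the library labelled KPC-shV they included Cel (0.93) and 2210010C04Rik (0.92). Zg16, Sycn and Cel are among the non-protease acinar genes by which these spots were chosen.

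The proportions also varied with the acinar content of the spots. Spots with 2% to 5% non-protease acinar UMIs numbered 51 and 118, those with 5% to 10% numbered 89 and 213, and those with 10% to 20% numbered 670 and 19, so that the top range was filled mostly from the library labelled KPC-shZEB1. In that library the Ctrb1 share was 60.9%, 56.7% and 37.6% over the 3 ranges, whereas under the label KPC-shV it was 70.9%, 65.9% and 61.6%. The Cela2a share was 11.6%, 13.3% and 23.4% against 9.97%, 13.6% and 16%, so at 5% to 10% it was slightly lower in the library labelled KPC-shZEB1. At up to 10% acinar content the libraries thus differed less in Ctrb1 and Cela2a than over all acinar-rich spots. Cela1 still differed in each range, at 0.901%, 1.37% and 3.92% against 0.231%, 0.342% and 0.494% (3.90-fold, 4.01-fold and 7.93-fold). Try4 did so as well, at 1.54%, 1.76% and 2.26% against 0.593%, 0.462% and 0.618%. Of all UMIs, the 8 members took 10.4%, 25.7% and 46.1% in the 3 ranges under the label KPC-shZEB1. Under the label KPC-shV they took 12.3%, 31.5% and 38.8%. In the first 2 ranges their summed level was thus lower in the library labelled KPC-shZEB1. The range from 10% to 20% holds 19 spots labelled KPC-shV, too few to show the spread there. Median depths in the first 2 ranges were 45163 and 45074 UMIs against 12936 and 24143 UMIs, and the part of depth in the result was not tested.

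**Figure D3:**
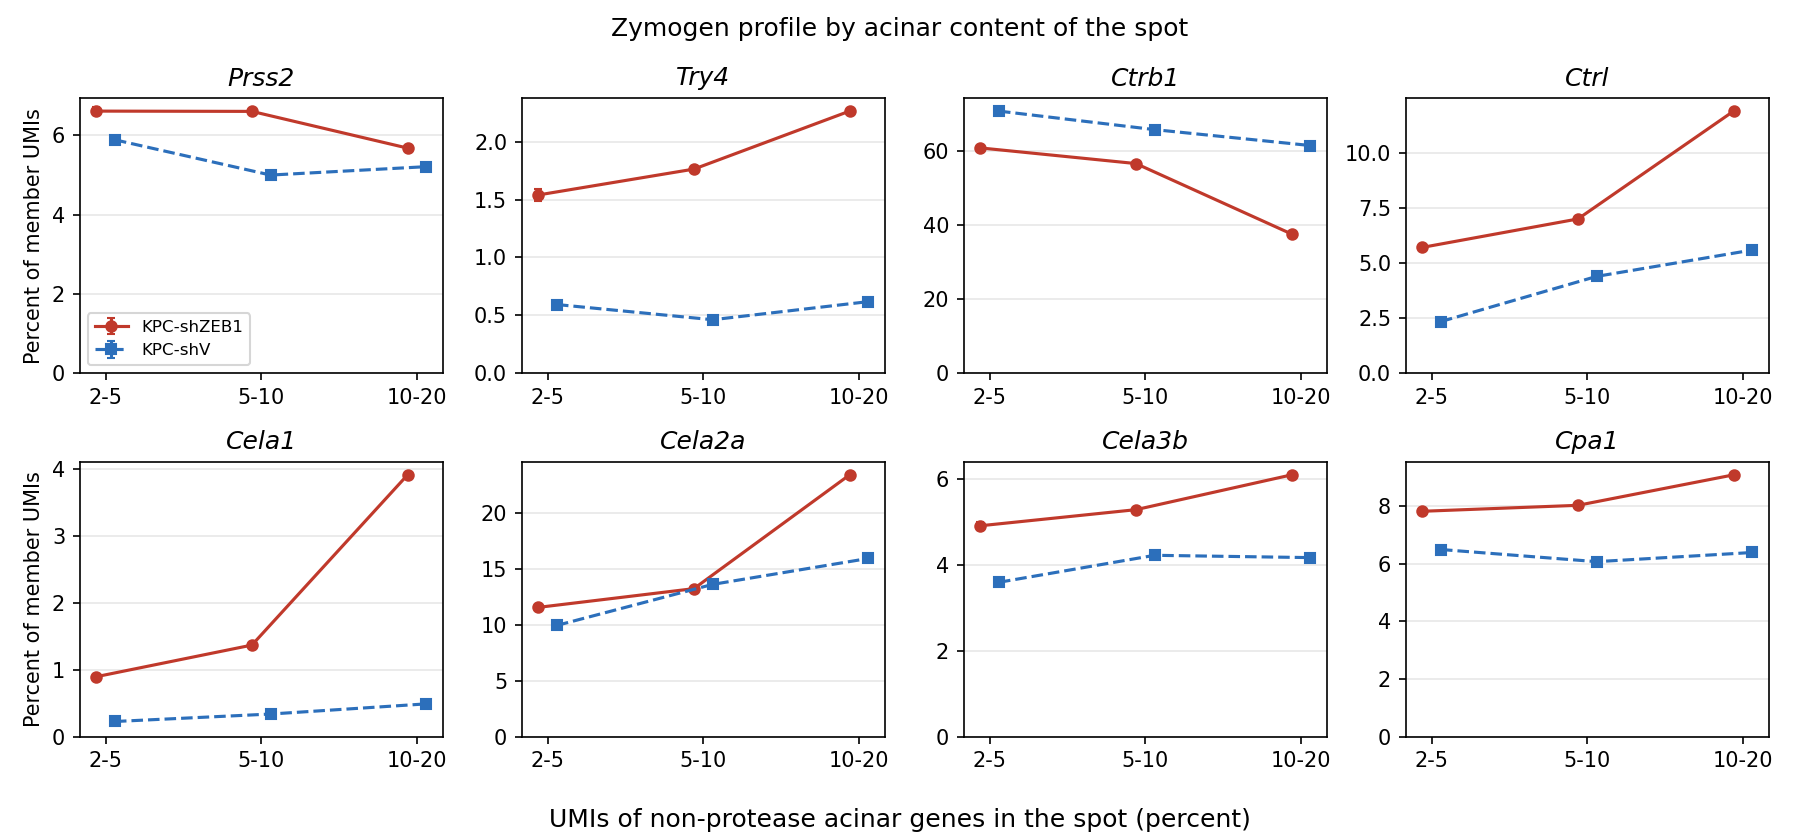
Percent of the member UMIs taken by each zymogen gene in spots with 2% to 5%, 5% to 10% and 10% to 20% of their UMIs from non-protease acinar genes (circles and solid lines KPC-shZEB1, squares and dashed lines KPC-shV); bars are exact 95% binomial intervals, mostly smaller than the points. The Cela2a lines meet at 5% to 10%, while the Cela1 and Try4 lines stay apart in all 3 ranges.

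The Reg UMIs per member UMI varied with the profile, as did the acinar content. In acinar-rich spots the Reg genes summed to 69455 CPM under the label KPC-shZEB1 and 133431 CPM under the label KPC-shV. The median tested gene was also lower under the label KPC-shZEB1 there, with a log2 ratio of -1.02. Summed over acinar-rich spots there were 0.161 UMIs of Reg1, Reg2, Reg3a, Reg3b and Reg3g per member UMI under the label KPC-shZEB1, against 0.479 under the label KPC-shV. Within each library, spots with more Reg UMIs per member UMI had a larger share of Ctrb1 (r = 0.82 over 810 spots and 0.45 over 350 spots) and a smaller share of Ctrl (-0.82 and -0.72), Cela2a (-0.85 and -0.55) and Cela1 (-0.81 and -0.31). Try4 did not follow the Reg genes in the same way, with r of -0.30 and 0.25. Member UMIs enter both measures of these correlations. The shares also varied with the log2 non-protease acinar percent of the spots. There r was -0.69 and -0.45 for Ctrb1, 0.76 and 0.59 for Ctrl, 0.79 and 0.54 for Cela2a, and 0.81 and 0.14 for Cela1. Whether the Reg genes relate to the profile apart from acinar content was not tested. Among acinar-rich spots with 0.3 to 0.6 Reg UMIs per member UMI (170 and 210 spots, a range chosen after the data were seen), the Cela2a share was 14.3% in both libraries. In these spots the Cela1 share was 1.70% (1.69% to 1.72%) and 0.378% (0.369% to 0.387%), a 4.50-fold difference. The Try4 share was 2.04% and 0.482%, 4.24-fold, and the Ctrl share 7.53% and 4.74%, 1.59-fold. The Ctrb1 share was 53.4% and 64.8%, and the Prss2 share 7.05% and 4.97%, 1.42-fold. The Cpa1 share was 8.50% and 6.08% and the Cela3b share 5.51% and 4.22%. In this Reg range, then, the Cela2a shares were equal within counting error while all other members differed, Cela1 and Try4 by over 4-fold. Only the Reg ratio was limited in these spots, not their depth or acinar content.

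**Figure D4:**
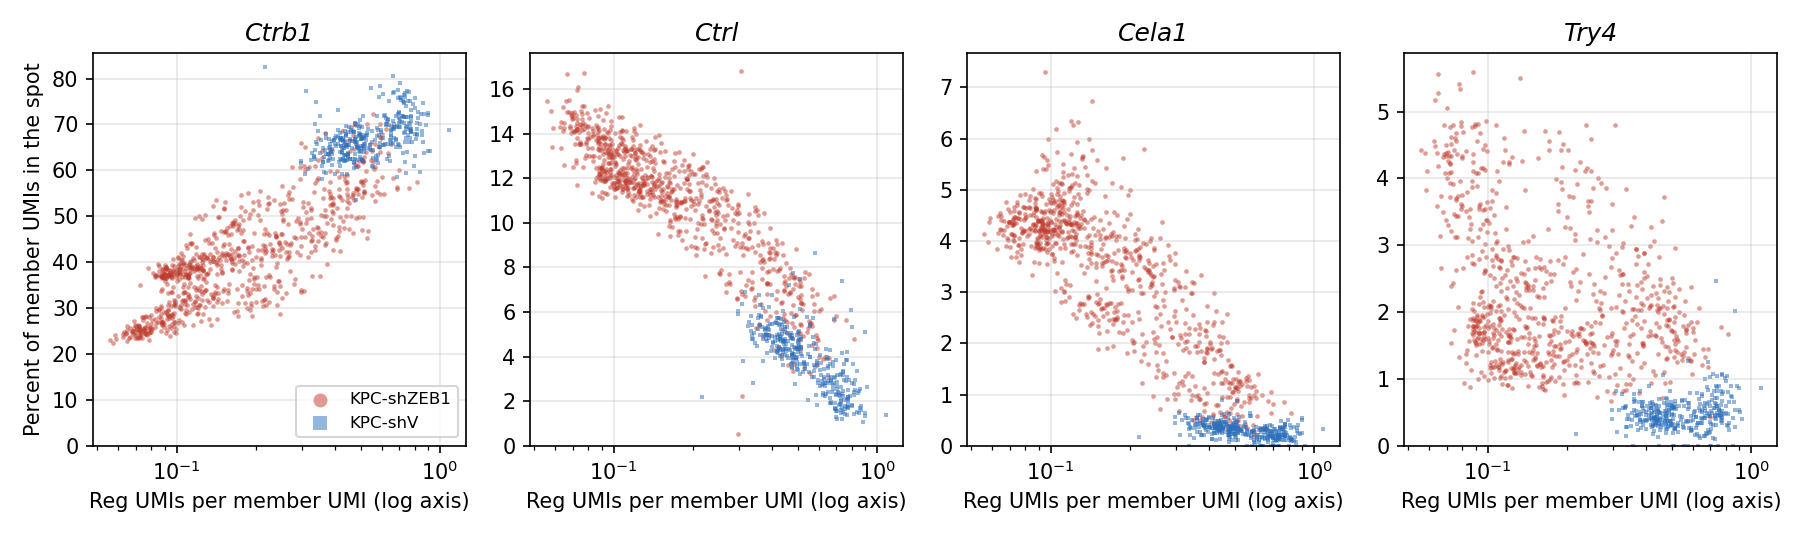
Percent of the member UMIs of a spot taken by Ctrb1, Ctrl, Cela1 and Try4 against the Reg UMIs per member UMI (log axis), with 1 point per acinar-rich spot (circles, 810 spots labelled KPC-shZEB1; squares, 350 labelled KPC-shV). Ctrb1 climbs and Ctrl and Cela1 descend with the Reg ratio, and between 0.3 and 0.6, a range chosen after the data were seen, most Try4 and Cela1 points labelled KPC-shZEB1 lie above those labelled KPC-shV.

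Genes of other cells also differed in the acinar-rich spots. All 6 islet, 5 fibroblast, 4 macrophage, 3 neutrophil and 3 endothelial genes of the lists were over 2-fold higher in the library labelled KPC-shV, as were 52.1% of all tested genes. Not all lists did so: 2 of 5 tumor epithelium genes were over 2-fold higher there, but 0 of the 2 T cell genes and 0 of the 1 B cell gene tested. Summed, the fibroblast list was at 1014 and 5130 CPM, the macrophage list at 236 and 835 CPM and the islet list at 107 and 805 CPM. The lysosomal protease genes Ctsb, Ctsl and Ctsd, of which cathepsin B can activate trypsinogen inside the acinar cell, were over 2-fold higher there as well, with log2 ratios of -1.70, -1.70 and -1.70. The part of these cells in the zymogen profile was not tested. Spink1, the trypsin inhibitor that acinar cells store with the zymogens, was at 1535 and 1324 CPM, within 2-fold. None of the 5 acinar transcription factor genes differed by over 2-fold in either direction, with Ptf1a at 32.8 and 46.3 CPM and Rbpjl at 117 and 212 CPM. Of 7 other pancreatic protease genes, 4 were over 2-fold higher in the library labelled KPC-shZEB1 and none was lower by that much: Ctrc, Prss3, Gm5771 and Cela3a, the latter pair named after their values were seen. Ctrc, which encodes chymotrypsin C, was at 157 and 36.4 CPM. Klk1 was at 5589 and 5008 CPM, within 2-fold.

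In tumor spots, all 8 members were over 2-fold higher in the library labelled KPC-shZEB1, as were 4.53% of the 13884 genes tested, while 2.88% were higher by over 2-fold in the library labelled KPC-shV. The median log2 ratio of all tested genes was -0.05. The 11 non-protease acinar genes, by which these spots were limited, summed to 307 and 34.8 CPM. That was an 8.82-fold difference, against 9.38-fold for the 8 members summed. Of the 10 non-protease acinar genes tested, 9 were over 2-fold higher under the label KPC-shZEB1, so this was shared with other acinar genes. Ctrb1 was read there at 365 CPM (359 to 372) against 54.5 CPM (53.0 to 56.1), Cela2a at 195 and 11.8 CPM, and Ctrl at 101 and 7.93 CPM. Cela1 was at 41.2 CPM (39.2 to 43.3) against 4.48 CPM (4.06 to 4.94), and Try4 at 19.7 CPM (18.3 to 21.1) against 1.11 CPM (0.905 to 1.35). Without the 5% highest spots the log2 ratio of Try4 was 6.78 in place of 4.15. Under the label KPC-shV those spots held 87.3% of its 102 UMIs, against 20.9% of 729 under the label KPC-shZEB1. Try4 had no UMI in 1518 of the 1612 tumor spots labelled KPC-shV, and 5.83% of them had any. Its level there thus rested on few UMIs. The large part held by the highest 5% of spots, and the ratio without them, largely follow from that low count. The 8 members summed to 905 and 96.5 CPM, which is small beside 432474 and 278470 CPM in acinar-rich spots. Markers of other cells also differed between these tumor spots. The T cell list (Cd3d, Cd3e and Cd3g) was at 54.5 and 6.88 CPM, with 3 of 3 genes over 2-fold higher under the label KPC-shZEB1, and the mast cell list at 21.9 and 6.80 CPM, with 3 of 4. The neutrophil list was at 119 and 338 CPM, with 2 of 3 genes over 2-fold higher under the label KPC-shV, and the islet list at 4.72 and 17.4 CPM. The macrophage, fibroblast and endothelial lists differed by less than 2-fold in sum. The part of these cells in the zymogen levels was not tested.

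As a percent of the level in acinar-rich spots of the same library, the 8 members in tumor spots labelled KPC-shZEB1 lay close together, from 0.196% for Cpa1 to 0.252% for Cela1. The summed non-protease acinar genes had 0.217% (0.213% to 0.221%) there. Most zymogen genes thus had close to their acinar proportion in the tumor spots, where Ctrb1 made up 40.4% of the member UMIs (38.7% in acinar-rich spots), Cela2a 21.5% (22.9%), Ctrl 11.2% (11.6%) and Try4 2.17% (2.24%). Cela1, at 4.56% and 3.78%, stood a little above its acinar proportion. The Reg genes were at 0.479% of their acinar-rich level, higher than any member.

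In the library labelled KPC-shV the members were less alike in this measure. Ctrb1 (0.0298%), Cela2a (0.0312%), Cela3b (0.0351%), Prss2 (0.0370%) and Cpa1 (0.0425%) in tumor spots had less than the non-protease list (0.0476%), whereas Ctrl had 0.0653%, Try4 0.0800% and Cela1 0.456% (0.412% to 0.503%). With acinar-rich spots at over 10%, which leaves 19 spots labelled KPC-shV, the latter values were 0.0366%, 0.0463% and 0.234%. Cela1 took 4.65% of the member UMIs in tumor spots and 0.353% in acinar-rich spots. When tumor spots were divided at their median non-protease acinar percent, Ctrb1 was at 25 CPM in the lower part and 86.4 CPM in the upper part (3.46-fold). Prss2 was at 2.35 and 8.44 CPM, while Cela1 was at 4.17 CPM (3.61 to 4.79) against 4.82 CPM (4.19 to 5.51), 1.16-fold. In the library labelled KPC-shZEB1 the same division gave 2.32-fold for Ctrb1 and 1.95-fold for Cela1. Under the label KPC-shV, Try4 (1.54-fold) and Ctrl (1.59-fold) also moved less than Cpa1 (2.52-fold), Cela2a (2.67-fold) and Cela3b (3.54-fold). Cela1 labelled KPC-shV therefore hardly moved with the acinar content of the tumor spots, unlike Ctrb1, and Try4 and Ctrl moved little. Among 8 genes that mark other tissues, 6 had 0.0435 to 1.11 CPM in these spots, Omp of olfactory neurons 10.2 CPM and Tnnt2 of heart muscle 526 CPM. Only Ctrb1 and Cela2a exceeded Omp there, and Try4, at 1.11 CPM, did not exceed the highest of the other 6.

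**Figure D5:**
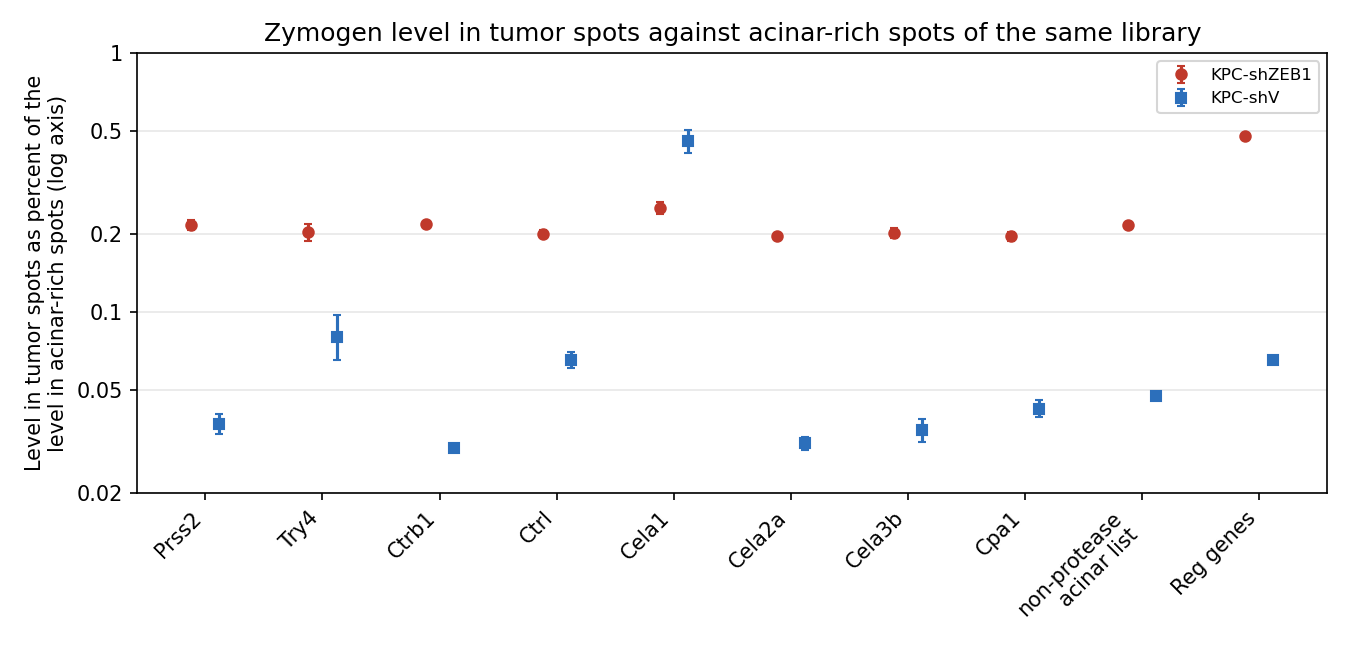
Level in tumor spots as a percent of the level in acinar-rich spots of the same library (log axis) for each zymogen gene, the summed non-protease acinar list and the summed Reg genes (circles KPC-shZEB1, squares KPC-shV); bars are exact 95% intervals. The 8 circles lie between 0.196% and 0.252%, and the squares between 0.0298% and 0.0800% apart from Cela1 at 0.456%.

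The shares of tumor spots with a UMI gave the same order of the libraries. After random thinning of each spot to 5000 UMIs (0 and 30 spots were shallower and not used), any member was detected in 541 of 549 tumor spots (98.5%, interval 97.1% to 99.4%) labelled KPC-shZEB1 and in 509 of 1582 (32.2%, 29.9% to 34.5%) labelled KPC-shV. Ctrb1 was detected in 78.0% and 21.9% of the spots, Cela2a in 56.5% and 6.13%, Ctrl in 39.3% and 3.86%, Cpa1 in 31.1% and 3.73%, Prss2 in 25.7% and 2.84%, Cela3b in 23.0% and 2.84%, Cela1 in 20.9% and 2.02%, and Try4 in 10.0% and 0.759%. Among the 8 genes of other tissues the median share was 0.546% and 0.537%, Omp had 3.46% and 5.63%, and Tnnt2 had 67.0% and 82.6%. The third highest of these genes had 0.911% and 1.20%. Under the label KPC-shV, Ctrb1 and Cela2a were above all of them but Tnnt2, the shares of Ctrl, Cpa1, Prss2, Cela3b and Cela1 lay between those of Omp and of the third highest, and that of Try4 lay under both. The shares in that range, and that of Try4, cannot be told from background by this measure. Without thinning, Ctrb1 was detected in 100% and 75% of tumor spots, Cela1 in 85.2% and 21.3% and Try4 in 66.1% and 5.83%.

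Within the tumor spots labelled KPC-shZEB1 the summed level of the members ran from 287 to 6677 CPM with a median of 672 CPM, and the highest 5% of these spots held 18.4% of the member UMIs. In the library labelled KPC-shV it ran from 0 to 8395 CPM with a median of 58.2 CPM, and the highest 5% held 25%. The ranges overlapped although the medians differed. Over the tumor spots the Ctrb1 level varied with that of the non-protease acinar genes (r = 0.81 over 549 spots and 0.35 over 1612 spots, on the log2 scale with a pseudocount of 1), and the Cela1 level less so (0.37 and 0.02). These points share a library and their depth, and most values labelled KPC-shV rest on few UMIs. How far a tumor spot lay from the normal pancreas was not analysed here, because spot positions were not used.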

How the data were processed

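Spatial transcriptomics was analyzed in 1 library per label, KPC-shZEB1 and KPC-shV. The authors deposited UMI counts, without normalization, of each gene in each spot over tissue. The submitters' processing notes name Space Ranger 2.0.1 and mm10. From the deposited counts, levels, shares, ratios and exact intervals at the 95% level were computed in Python 3.11.15 with numpy 2.4.6, scipy 1.17.1 and pandas 2.3.3. Promoters were read from RefSeq on GRCm38.p6, gene positions and transcripts came from GENCODE, and transcripts were aligned with Biopython 1.88. Figures used matplotlib 3.10.9. The code for levels and ratios was first run on simulated counts (19465 genes, 500 spots for each label, 200 genes changed). It gave the right direction for all 200 in that simulated comparison, its log2 error had a median size of 0.0521, and 95.8% of its 19293 intervals covered the simulated ratio. All simulated spots of a library had the same gene proportions, unlike the real spots. The run therefore checks the computation only, and not how the intervals hold with spread between spots or animals.

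The members, lists and spot classes were chosen with earlier results of these data known. The genes named are the 8 members, up to 4 genes of each list and, per library, the 3 genes most correlated with the member sum among those with at least 50 CPM. Some items that this rule would name are not reported here. Of the listed genes, 12 are not in the feature list used: Pnliprp1, Amy2a1, Amy2a2, Amy2a3, Amy2a4, Amy2b, Krt18, Prss1, Try5, Gm10334, Cpb1 and Tmprss15. Spots are regions, so neither doublets nor cell type makeup were called. All spots were kept: a minimum of 500 genes and 1000 UMIs would remove 1 and 2 of them.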

Additional observations from a re-analysis of the deposited data

How the results depend on the processing

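Across 74 results, 651 alternative values were computed. Of these, 249 stayed within counting error and 391 moved outside it, to smaller or larger values, without a turn in direction. The other 11 turned direction, in 9 results, all of them log2 ratios or share differences in acinar-rich spots. Levels as a percent of the acinar-rich level and shares of spots with a UMI are never negative. They could not turn, so the count of turns says nothing about them. Counting error is narrow here, so small shifts count as moved. With 1 library per label, no replicate could be left out, and no paired analysis was possible because each group has 1 library. No difference between labels has a replicate check, and in tumor spots labelled KPC-shV the low counts of Try4, Cela1 and Cela3b limit their values.

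The log2 ratio of the 8 members over all spots was 4.10 with acinar genes taken out of the total, 4.20 relative to the median gene, 2.60 as the mean over spots and 5.58 without the highest 5% of spots. In acinar-rich spots the same settings gave 1.29, 1.66, 0.75 and 0.69. With acinar-rich spots set at over 1%, 5% or 10% it was 0.69, 0.46 and 0.25, and it was 0.48 at over 20% with the members included. Per non-protease acinar UMI, chosen after the data were seen, it turned to -0.32, and that of Prss2 to -0.16. The ratio of Ctrb1 turned to 0.53 without acinar genes in the total and 0.90 relative to the median gene. In tumor spots the ratio of the 8 members was 3.26 relative to the median gene, 2.67 as the mean over spots, 3.29 and 2.87 with limits of 0.5% and 0.05%, 2.91 for all spots under 0.2% and 3.33 with no limit.

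For the share of the chymotrypsinogen class, the difference between libraries (KPC-shZEB1 minus KPC-shV) was -19.6, -17.6 and -19.7 percentage points with acinar-rich spots at over 5%, over 10% and over 20% with members, -19.1 as the mean over spots, -6.59, -6.57 and -17.6 in the ranges of 2% to 5%, 5% to 10% and 10% to 20%, and -8.68 at matched Reg levels, chosen after the data were seen. For the elastase class the same settings gave 14.2, 12.8, 14.3, 13.8, 3.59, 1.71, 12.8 and 2.62 points. With Ctrb1 left out, the differences were 6.23 points for chymotrypsinogen (Ctrl alone), 0.463 for elastase, -3.41 for trypsinogen and -3.28 for carboxypeptidase, and -5.60 for Prss2, -2.42 for Cela2a and -2.25 for Cela3b, which follows from removing the largest member from the denominator. The Cela2a difference was -0.379 points at 5% to 10%.

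The level of the 8 members in tumor spots was 0.213%, 0.203%, 0.196% and 0.203% of the acinar-rich level in the library labelled KPC-shZEB1 with acinar-rich spots at over 1%, 5%, 10% and 20% with members, and 0.0366%, 0.0297%, 0.0249% and 0.0303% in the library labelled KPC-shV. With limits of 0.5%, 0.05%, all spots under 0.2% and no limit it was 0.220%, 0.157%, 0.240% and 0.226% in the former. In the latter it was 0.0333% at 0.05% and 0.0495% for all spots under 0.2%. Any member was detected in 93.9% of tumor spots labelled KPC-shZEB1 at 0.05%, and in 96.6% and 35.5% of all spots under 0.2%. The shares were 100% and 91.1% without thinning, 78.7% and 18.4% at 2000 UMIs, and 88.0% and 12.2% with at least 2 UMIs.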
